A study of Mus musculus with 10 samples.

Results

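Heat shock proteins and the chaperones of the cytosol were followed as a set of 33 mouse genes fixed by name, among 55494 genes with an estimate. The set holds 4 HSP70 genes, 3 HSP110 genes, 4 J protein genes, the small heat shock protein gene Hspb1 with its partner Bag3, 8 genes of the HSP90 system, 7 subunits of the chaperonin CCT, 3 mitochondrial chaperones and the heat shock factors Hsf1 and Hsf2. The rule names the genes and uses no measured value, although earlier results of these data were known when it was written, and 31 of them were among the 13729 genes that passed the filter on low counts. The cells were leukemia initiating cells (LICs), obtained by cell sorting from spleens of Eμ-RET pups aged 13 days. All pups carried the RFP/RET transgene, a fusion gene under an immunoglobulin heavy chain enhancer that gives rise to B cell precursor leukemia, so there was no group without the transgene. Of the 10 pups, 5 had received 50 µl PBS and the other 5 had received 20 µg Poly(A:U), 7 days before collection. The question was what Poly(A:U), an artificial double-stranded RNA sensed by Toll-like receptor 3, does to LICs. The design text of the series counts 5 treated pups per group, 1 for each library, and libraries are named here by group and replicate number.

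Chaperones bind unfolded or partly folded proteins and release them in cycles driven by ATP. HSP70 takes up clients delivered by J proteins and lets go of them with the help of exchange factors such as HSP110 and BAG proteins. It can pass them to HSP90 through the adaptor Stip1, while the ring-shaped chaperonins CCT, in the cytosol, and HSP60 with its lid HSP10, in mitochondria, fold proteins in a closed chamber. Under heat, proteotoxic stress or rough handling of cells, the factor HSF1 binds heat shock elements, arrays of inverted GAA units in promoters, and induces Hspa1a, Hspa1b, Dnajb1, Hspb1, Bag3 and Hsph1 from low levels. Hspa8, Hsp90ab1 and the CCT subunits are made at high levels in unstressed, growing cells.

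The promoter sequences are shown first because they show which members hold exact runs of the units that HSF1 recognises. Windows from 250 bases before to 50 bases after a start site were taken from RefSeq (GRCm38.p6, the build mm10), and 27 of the 33 members matched an entry, some with several start sites. No entry was found for Hspa8, Hsp90aa1, Hsp90ab1, Hspa9, Cct4 and Hsf1. A run of 3 units, GAANNTTCNNGAA or TTCNNGAANNTTC, searched on both strands with overlapping matches counted, was found for 4 of the 27 members, namely Chordc1, Hspe1, Hspd1 and Hsph1, and for 0.662% of the 27025 genes with an entry. The shorter run of 2 units, GAANNTTC or TTCNNGAA, was found for 13 of the 27 members and for 17.0% of genes. Of the genes named above as induced by HSF1, Hspa1a, Hspa1b, Dnajb1, Hspb1 and Bag3 held no 3-unit run. Dnajb1 held no 2-unit run either. In the first group below, capitals mark the bases of the 3-unit runs. Chordc1 held 3 overlapping runs across its start site at chr9:18292017-18292316 (plus strand).
Chordc1: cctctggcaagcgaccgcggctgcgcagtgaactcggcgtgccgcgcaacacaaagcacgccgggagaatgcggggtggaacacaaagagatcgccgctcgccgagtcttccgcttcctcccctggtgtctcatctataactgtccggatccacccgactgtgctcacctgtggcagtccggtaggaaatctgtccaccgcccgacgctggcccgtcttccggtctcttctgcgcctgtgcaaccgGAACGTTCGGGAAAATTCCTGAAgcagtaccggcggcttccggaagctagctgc
Hspe1, at chr1:55087898-55088197 (plus strand), overlaps the RefSeq window of Hspd1 at chr1:55087883-55088182, on the opposite strand. Both of these windows hold the same 2 overlapping runs. The runs lie before the start site of Hspe1 and within the annotated span of Hspd1. The other Hspd1 window, at chr1:55088194-55088493, overlaps only the last bases of the Hspe1 window and held no run.
Hspe1: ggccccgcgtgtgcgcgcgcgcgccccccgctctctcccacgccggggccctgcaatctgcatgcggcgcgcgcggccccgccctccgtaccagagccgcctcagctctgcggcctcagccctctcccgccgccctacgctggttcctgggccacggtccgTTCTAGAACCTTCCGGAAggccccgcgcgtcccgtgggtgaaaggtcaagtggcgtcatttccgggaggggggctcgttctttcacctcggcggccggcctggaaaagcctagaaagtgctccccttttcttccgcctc
Hsph1, at chr5:149636287-149636586 (minus strand), held its run after the start site.
Hsph1: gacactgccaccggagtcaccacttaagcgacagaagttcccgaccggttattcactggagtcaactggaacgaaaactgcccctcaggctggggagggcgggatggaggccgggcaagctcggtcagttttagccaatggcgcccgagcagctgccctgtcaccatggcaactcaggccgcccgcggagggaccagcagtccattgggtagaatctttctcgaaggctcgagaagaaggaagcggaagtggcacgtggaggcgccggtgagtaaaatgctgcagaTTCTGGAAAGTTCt
The HSP70 pair Hspa1a (chr17:34972107-34972406, minus strand) and Hspa1b (chr17:34959189-34959488, minus strand) is shown because the genes are near copies. Their windows differed at 4 of 300 bases, and capitals mark the same 2-unit match in each.
Hspa1a: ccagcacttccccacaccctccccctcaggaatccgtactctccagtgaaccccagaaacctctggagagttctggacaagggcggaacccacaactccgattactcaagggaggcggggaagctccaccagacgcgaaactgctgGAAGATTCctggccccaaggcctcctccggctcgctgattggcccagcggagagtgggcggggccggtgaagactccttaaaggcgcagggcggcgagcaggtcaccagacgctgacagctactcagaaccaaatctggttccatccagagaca
Hspa1b: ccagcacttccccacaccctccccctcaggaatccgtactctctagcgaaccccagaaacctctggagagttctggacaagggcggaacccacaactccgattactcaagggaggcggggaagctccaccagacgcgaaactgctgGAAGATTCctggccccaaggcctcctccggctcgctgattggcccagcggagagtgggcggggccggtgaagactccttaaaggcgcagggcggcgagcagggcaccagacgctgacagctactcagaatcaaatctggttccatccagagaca
A match describes the letters of the window only, and the lack of an exact match does not show that HSF1 leaves a gene unbound.

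Libraries held between 17859006 and 22587871 estimated reads. Markers of B cell precursors were abundant in all 10 libraries, with a summed level of 8156 CPM (reads of a gene scaled to a common library total) in PBS 4 and between 9991 and 12891 CPM in the others. The names of the deposited libraries start alike in PBS 1 to PBS 3, and these 3 libraries stood apart from the other 7 in genes outside the set. Their 9 neutrophil markers summed to between 733 and 1095 CPM, against 31.2 to 274 CPM in the other 7, and their 9 erythroid markers to between 138 and 432 CPM, against 1355 to 12306 CPM. Xist stood at 0.336 CPM or less and Ddx3y at 42.8 to 51.6 CPM in these 3, against at least 112 CPM and at most 4.67 CPM in the other 7. Both are sex-linked genes, and they separate these 3 libraries from every Poly(A:U) library. A difference in sex therefore cannot be told apart from treatment for PBS 1 to PBS 3. PBS 4 also stood apart, with 16006 genes at 10 or more reads against 13396 to 14702 in the others, and with T cell markers summing to 97.0 CPM against 15.9 to 24.6 CPM. No gene of any of these marker lists was at 0 in every library. What the shared start of the names stands for is not given in the sources used here, and since no Poly(A:U) library carries it, it and the PBS group cannot be told apart for PBS 1 to PBS 3. In such bulk samples, fewer cells of a type and less RNA per cell cannot be told apart.

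The 33 genes together took 0.676% to 0.875% of the reads of a library, or 6758 to 8749 CPM. Hspa8, Hsp90ab1 and Hsp90aa1 together made up between 39.9% and 43.9% of that sum in every library. Per transcript length, Hsp90ab1 was the most abundant member, at 973 ± 97.1 TPM (a level scaled for transcript length and library total; SD, n = 10), followed by Hspa8 at 827 ± 163 TPM. Their ranges over the libraries overlapped, at 826 to 1123 TPM and 531 to 1095 TPM. Hsp90aa1 (330 ± 66.7 TPM) and Cct2 (329 ± 20.0 TPM) came next. At the other end lay Hspa1b, Bag3, Hspa1a and Hspb1. The inducible genes Dnajb1 (44.0 ± 8.53 TPM) and Hsph1 (41.8 ± 7.54 TPM) lay above these but below most members. Hspa1b averaged 2.12 ± 3.92 TPM, Bag3 0.435 ± 0.251 TPM and Hspa1a 0.218 ± 0.154 TPM, and Hspb1 had reads in 1 library only. The ratio of Hspa8 to Hspa1b in TPM was lowest in PBS 4, at 72.5, so constitutive HSP70 transcripts outnumbered inducible ones in each library.

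**Figure D1:**
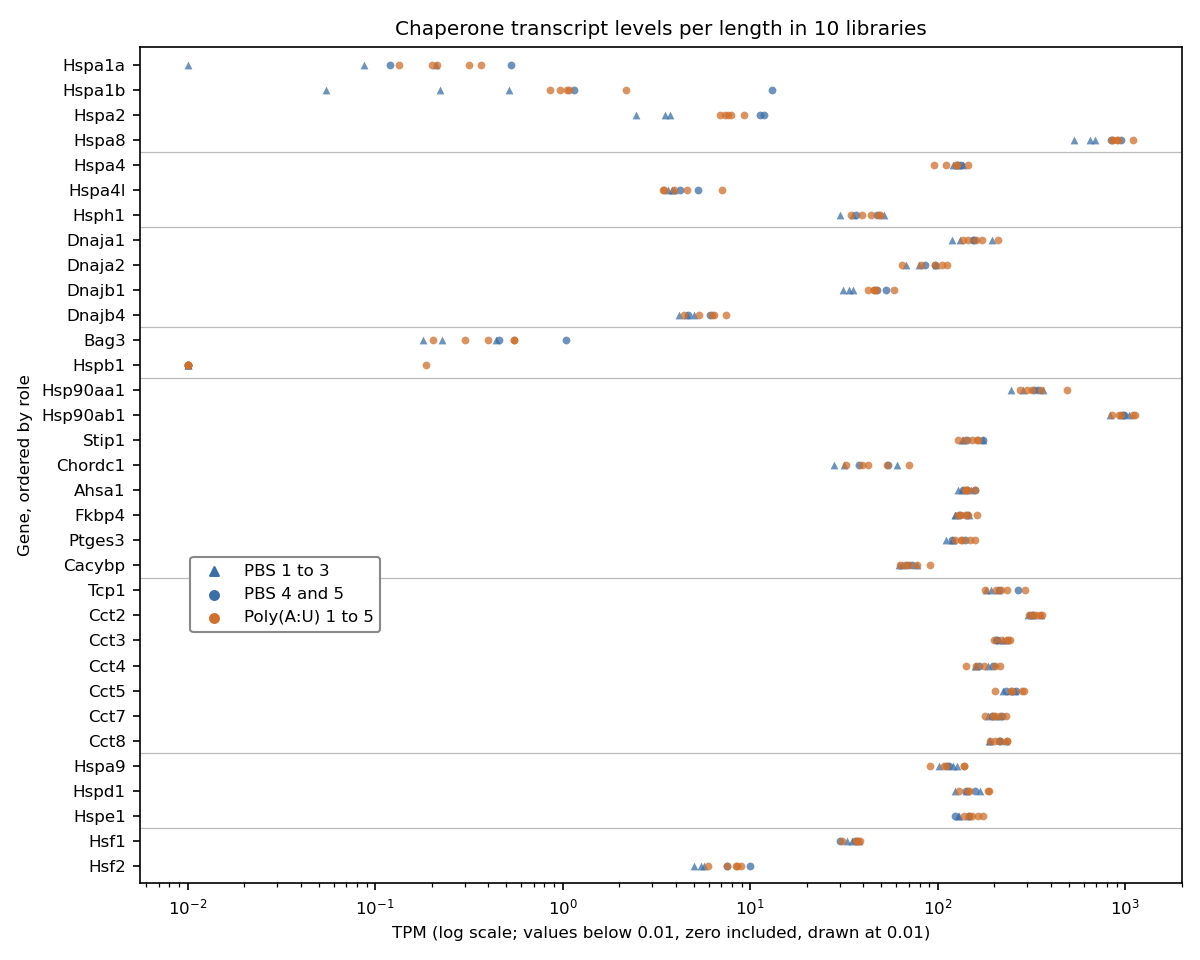
Level of each of the 33 genes per transcript length (TPM, log scale) in the 10 libraries, ordered by role, with PBS 1 to PBS 3 as triangles, PBS 4 and PBS 5 as blue circles and Poly(A:U) libraries as orange circles; zeros are drawn at 0.01. Hsp90ab1 and Hspa8 lie at the right, Hspa1a, Bag3 and Hspb1 at the left, and the PBS triangles lie lowest for Hspa1b, Hspa2, Hspa8, Dnajb1 and Hsf2.

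No member differed between Poly(A:U) and PBS at an adjusted p of 0.05 in edgeR's quasi-likelihood test, where 0 of 13729 genes passed (0.0%). At an unadjusted p of 0.05 the count was 1 of 31 members (3.23%), Chordc1, against 1002 of 13729 genes (7.3%). DESeq2's Wald test called 0 members and 13 genes (0.0947%) at the same adjusted threshold. That share is over all 13729 genes, those without an adjusted p included. DESeq2 gave no adjusted p for Hspa1b, so this member was not judged there. For no member did the 5 values of one group lie wholly outside those of the other, which occurred for 130 genes (0.947%). The log2 fold change (Poly(A:U) minus PBS) was above 0 for 26 of 31 members (83.9%), against 6784 of all genes (49.4%), with a median of 0.07 for the members and 0.00 for all genes. The 5 members below 0 were Hspa1b, Hspa4, Bag3, Stip1 and Cct7. For 25 of 31 members (80.6%) the 95% interval of the change lay within 1.5-fold in either direction, against 8827 genes (64.3%). The interval of Hspa1b, Hspa2, Hspa8, Dnajb4, Bag3 and Hsf2 reached beyond 1.5-fold, so a change of that size was not shown absent for these 6. For the other 25 the intervals bound the difference between the groups, not an effect of treatment alone. They come from the fit with treatment as its only term, which also holds whatever sets PBS 1 to PBS 3 apart.

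The sign of the small shift depended on which PBS libraries were used. Without PBS 1 to PBS 3 the median of the members was -0.05, with 9 of 32 tested members above 0. With further terms for what the library names share it was -0.10, with 3 of 31 above 0. Without PBS 4 it was 0.15, with 31 of 31 above 0, and no member passed an adjusted p of 0.05 in edgeR in any of these fits. The median over all genes was 0.003, -0.004 and 0.02 in these 3 fits. Limma voom with sample quality weights called 932 genes (6.79%) and 3 of 31 members (9.68%), namely Hspa8 (0.53 ± 0.10 SE, adjusted p = 0.0287), Dnajb1 (0.38 ± 0.10, adjusted p = 0.0383) and Hsf2 (0.54 ± 0.13, adjusted p = 0.0307). In edgeR without PBS 1 to PBS 3 the same 3 genes stood at 0.01 ± 0.15, -0.15 ± 0.11 and -0.20 ± 0.18. That fit keeps only PBS 4 and PBS 5 in the PBS group. In edgeR without PBS 4 the 3 genes stood at 0.52 ± 0.13, 0.38 ± 0.12 and 0.45 ± 0.14.

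**Figure D2:**
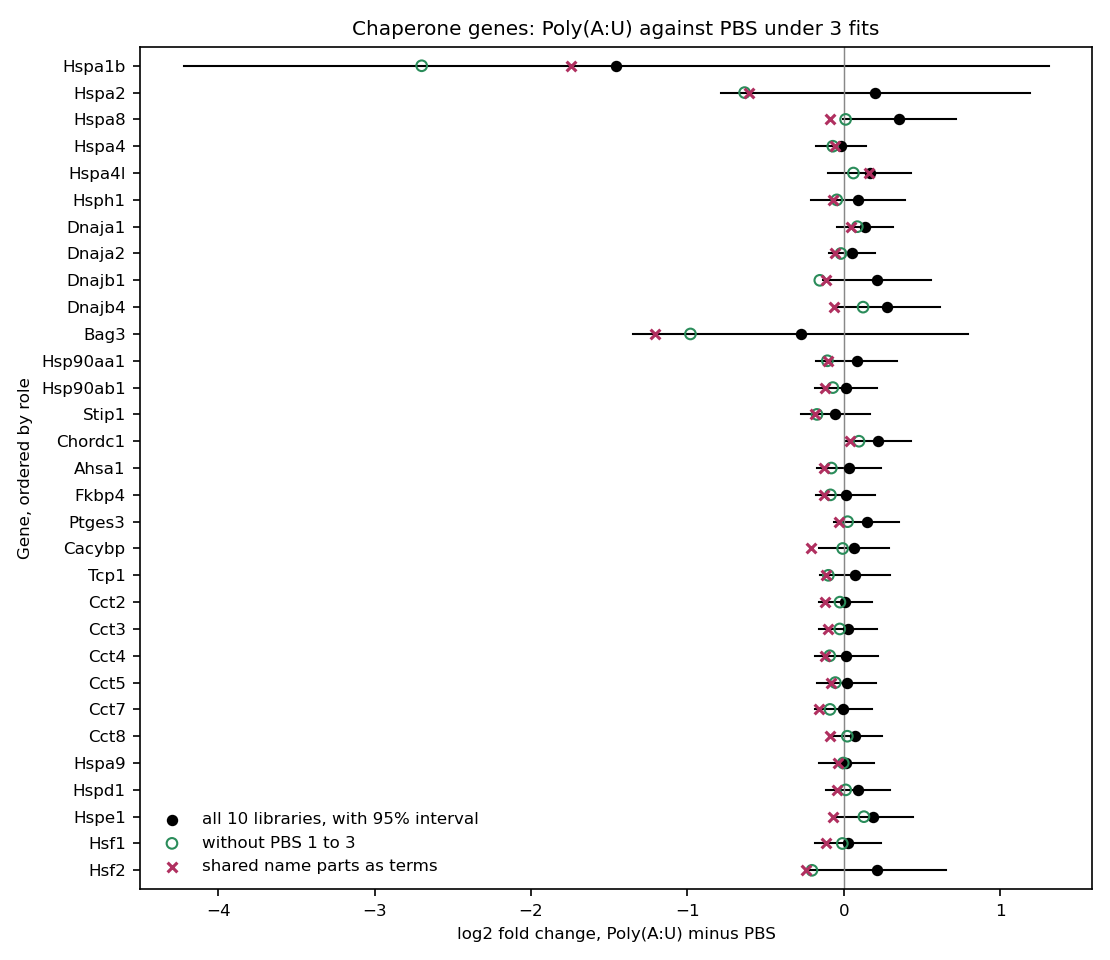
Change of each of the 31 tested members between Poly(A:U) and PBS (log2 fold change on the x axis), with filled circles and 95% intervals for all 10 libraries, open circles without PBS 1 to PBS 3 and crosses with the shared name parts as terms. Most filled circles lie slightly right of 0, while 23 of the open circles and 28 of the crosses lie left of it; Hspa1b and Bag3 have the widest intervals.

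Among the HSP70 genes, Hspa8, the constitutive cytosolic HSP70 (chr9:40800984-40810087), stood at 709, 738, 605, 1158 and 950 CPM in PBS 1 to PBS 5 and at 997, 1246, 1094, 1032 and 1055 CPM in Poly(A:U) 1 to 5. PBS 1 to PBS 3 were the lowest libraries, whereas PBS 4 and PBS 5 lay among or near the Poly(A:U) libraries. The difference was 0.36 ± 0.17 on the log2 scale (unadjusted p = 0.0524, adjusted p = 0.686, edgeR). Hspa1b, an inducible HSP70 (chr17:34956436-34959238), stood at 0.903, 0.392, 0.0993, 25.5 and 2.11 CPM in PBS and at 1.80, 2.20, 1.54, 1.86 and 3.54 CPM in Poly(A:U). A single library, PBS 4, held the highest value by far and PBS 3 the lowest, and both groups overlapped. PBS 4 was also the library with the highest T cell markers, and its macrophage markers summed to 194 CPM, while PBS 1 to PBS 3 had 137 to 167 CPM and the other 6 libraries 40.6 to 61.2 CPM, and the part of these cells in its value was not tested. The log2 fold change of Hspa1b was -1.46 ± 1.22 (adjusted p = 0.760, edgeR) with all libraries and 1.28 without PBS 4 (adjusted p = 0.343). It was -2.70 ± 0.75 without PBS 1 to PBS 3 (unadjusted p = 0.0088, adjusted p = 0.817), where PBS 4 is 1 of the 2 PBS libraries, and -1.74 with terms for what the library names share. Hspa1a, the near copy of Hspa1b (chr17:34969190-34972156), stood at 0.172, 0, 0.434, 1.17 and 0.249 CPM in PBS and at 0.426, 0.856, 0.437, 0.267 and 0.588 CPM in Poly(A:U), and it did not pass the filter. PBS 4 was again the highest library. Of all stretches of 75 bases in the Hspa1a transcript, 52.7% also occur in Hspa1b, and 55.8% of those of Hspa1b occur in Hspa1a, so how reads were divided between these genes is uncertain. Hspa2, an HSP70 best known from male germ cells (chr12:76404176-76406938), ran from 4.58 to 6.50 CPM in PBS 1 to PBS 3, was 23.4 and 20.7 CPM in PBS 4 and PBS 5, and ran from 12.8 to 17.5 CPM in Poly(A:U). The Poly(A:U) values therefore lay between both sets of PBS libraries, and the difference was 0.20 ± 0.44 (adjusted p = 0.919, edgeR). It turned to -0.63 ± 0.16 without PBS 1 to PBS 3 (unadjusted p = 0.0039, adjusted p = 0.817) and to -0.61 with terms for what the library names share.

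**Figure D3:**
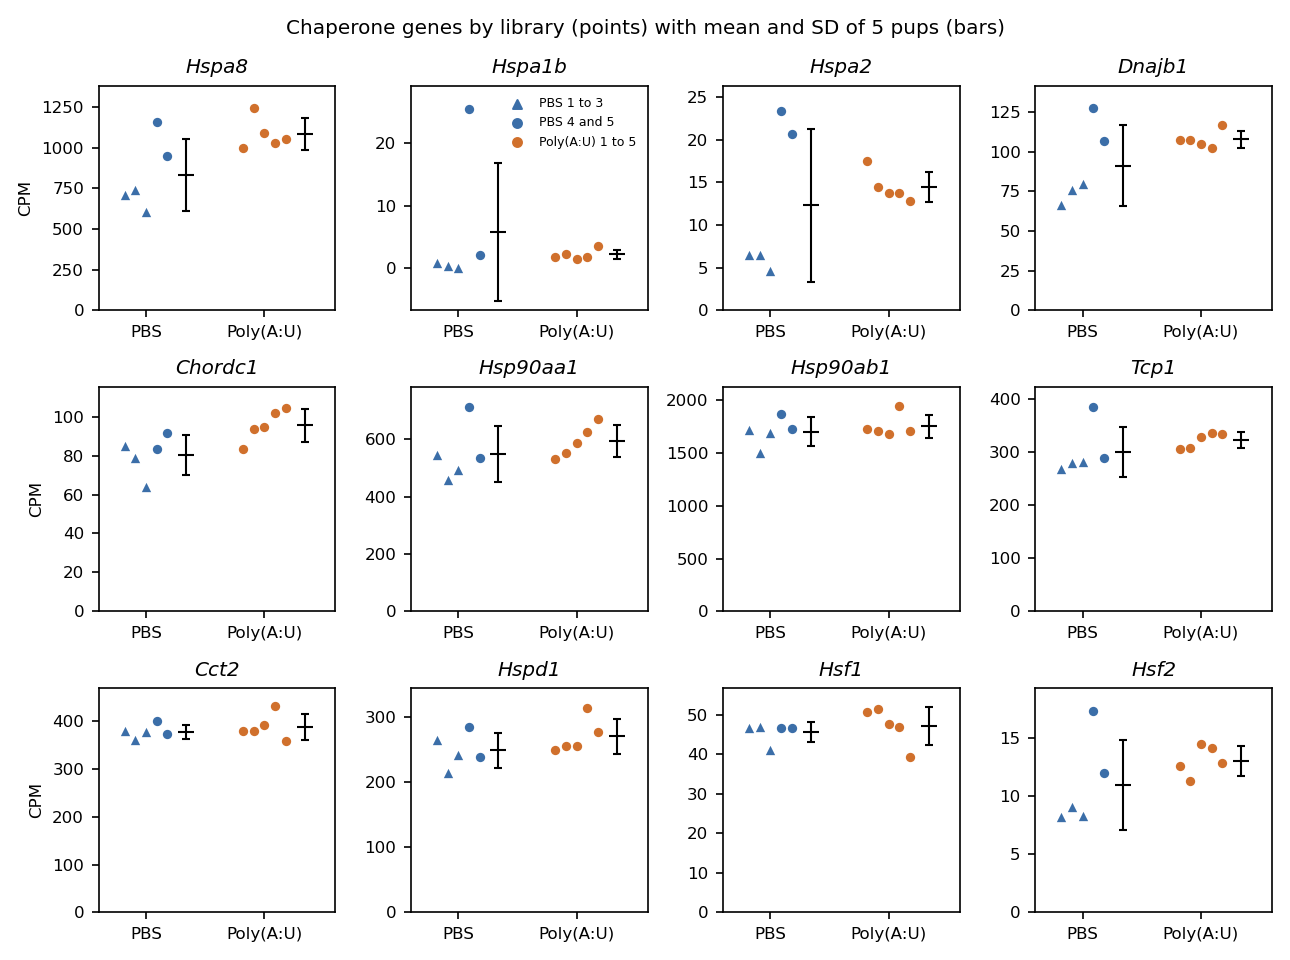
CPM of 12 members in each library (points: triangles PBS 1 to PBS 3, blue circles PBS 4 and PBS 5, orange circles Poly(A:U)), with the mean and SD of the 5 pups of each group as bars. The triangles lie below every other point for Hspa8, Hspa1b, Hspa2, Dnajb1, Tcp1 and Hsf2, and both groups overlap for all 12 genes.

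The HSP110 proteins act as exchange factors for HSP70. Hsph1, the heat-inducible one (chr5:149614287-149636376), stood at 99.6, 70.6, 56.5, 98.2 and 78.1 CPM in PBS and at 80.1, 83.3, 84.9, 95.02 and 94.2 CPM in Poly(A:U). Its Poly(A:U) values all lay inside the PBS range (0.09 ± 0.14, adjusted p = 0.875, edgeR). Hspa4, the constitutive HSP110, was the steadiest of the 3, between 239 and 296 CPM in all 10 libraries, and Hspa4l lay between 12.5 and 21.0 CPM.

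J proteins deliver clients to HSP70 and start its ATP cycle. Dnajb1, the main inducible J protein (chr8:83608193-83612653), stood at 66.3, 75.7, 79.4, 128 and 107 CPM in PBS and at 107, 107, 105, 102 and 117 CPM in Poly(A:U). The 5 Poly(A:U) values lay close together, between PBS 1 to PBS 3 on the low side and PBS 4 on the high side (0.21 ± 0.16, adjusted p = 0.730, edgeR). Dnaja1, a constitutive J protein (chr4:40722150-40737149), stood at 244, 228, 188, 233 and 231 CPM in PBS and at 228, 247, 254, 259 and 271 CPM in Poly(A:U), with 1 low library, PBS 3 (0.14 ± 0.08, unadjusted p = 0.123). Dnajb4, a J protein related to Dnajb1 (chr3:152178511-152210302), stood at 6.30, 7.06, 8.58, 8.11 and 9.43 CPM in PBS and at 7.13, 10.1, 10.7, 10.3 and 10.5 CPM in Poly(A:U). All Poly(A:U) libraries except the first lay above all PBS libraries, and the difference did not pass (0.28 ± 0.16, unadjusted p = 0.0993, adjusted p = 0.695, edgeR). Dnaja2 varied least among J proteins, from 138 to 160 CPM.

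Bag3, the BAG protein that links HSP70 to small heat shock proteins and selective autophagy (chr7:128523616-128546981), stood at 0.782, 0.336, 0.427, 2.06 and 0.848 CPM in PBS and at 0.390, 1.15, 0.568, 0.728 and 0.912 CPM in Poly(A:U). As for Hspa1a and Hspa1b, PBS 4 was the highest library. The change was -0.28 ± 0.49 (adjusted p = 0.892, edgeR), 0.31 without PBS 4, -0.98 without PBS 1 to PBS 3 and -1.21 with terms for what the library names share. Hspb1, the small heat shock protein HSP27 (chr5:135887919-135889563), was at 0 in 9 libraries, which allows levels of up to 0.133 to 0.168 CPM (3 reads, counting error only), and at 0.0912 CPM in Poly(A:U) 5. It was not tested.

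HSP90 matures kinases, steroid receptors and other clients with a series of co-chaperones. Hsp90ab1, the constitutive isoform (chr17:45567775-45573271), stood at 1720, 1496, 1683, 1871 and 1726 CPM in PBS and at 1729, 1703, 1674, 1942 and 1704 CPM in Poly(A:U). The lowest library was PBS 2 and the highest Poly(A:U) 4, and the group difference was 0.02 ± 0.09 (95% interval -0.18 to 0.21; adjusted p = 0.973, edgeR). Hsp90aa1, the more stress-responsive isoform (chr12:110690605-110702728), stood at 544, 459, 494, 712 and 535 CPM in PBS and at 532, 553, 587, 626 and 672 CPM in Poly(A:U). PBS 4 was the highest library (0.08 ± 0.12, adjusted p = 0.862, edgeR). In TPM, Hsp90ab1 exceeded Hsp90aa1 in every library, by 2.31 to 3.35 times, with a mean ratio of 3.08 ± 0.24 in PBS and 2.91 ± 0.35 in Poly(A:U) (SD, n = 5 each).

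Of the HSP90 partners, Chordc1, a co-chaperone that binds the HSP90 nucleotide-binding domain (chr9:18292125-18317442), had the smallest p of all members. It stood at 85.0, 78.5, 64.0, 83.4 and 91.4 CPM in PBS and at 83.1, 93.4, 94.6, 102 and 105 CPM in Poly(A:U). Poly(A:U) 1 fell among the PBS libraries and the other 4 Poly(A:U) libraries lay above all PBS libraries. The difference of 0.22 ± 0.10 (95% interval 0.01 to 0.43) did not pass across all genes (unadjusted p = 0.0403, adjusted p = 0.677, edgeR), and without PBS 1 to PBS 3 it was 0.10 ± 0.10. Stip1, the adaptor between HSP70 and HSP90 (chr19:7020702-7039967), stood at 255, 213, 216, 294 and 227 CPM in PBS and at 244, 227, 226, 258 and 228 CPM in Poly(A:U), with PBS 4 highest (-0.05 ± 0.10, adjusted p = 0.899, edgeR). The ATPase activator Ahsa1 (126 to 164 CPM), the immunophilin Fkbp4 (204 to 255 CPM) and the p23 gene Ptges3 (127 to 172 CPM) also had their highest value in PBS 4. Cacybp, which carries an HSP90-binding domain, was highest in Poly(A:U) 4, at 117 CPM, and lay between 82.9 and 101 CPM elsewhere.

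CCT folds actin, tubulin and other cytosolic proteins, and its subunits sit once in each ring. The 7 subunit genes of the set lay close together, with log2 fold changes between -0.002 and 0.07 and all 7 intervals within 1.5-fold. Tcp1, the alpha subunit (chr17:12915701-12925067), stood at 268, 278, 281, 384 and 289 CPM in PBS and at 305, 308, 329, 335 and 334 CPM in Poly(A:U). Its 3 lowest libraries were PBS 1 to PBS 3 and its highest was PBS 4 (0.07 ± 0.10, adjusted p = 0.866, edgeR). Cct2, the beta subunit (chr10:117051001-117063814), stood at 379, 361, 377, 401 and 372 CPM in PBS and at 379, 379, 391, 431 and 359 CPM in Poly(A:U). The highest library exceeded the lowest 1.20 times (0.01 ± 0.08, adjusted p = 0.979, edgeR). Per length, Cct2 was the highest of the 7 subunits in all 10 libraries, and the lowest was Cct4 (176 ± 23.1 TPM, n = 10) in 9 libraries and Cct3 in Poly(A:U) 5. The highest exceeded the lowest by 1.596 to 2.178 times within a library.

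In mitochondria, Hspd1 (HSP60, chr1:55077835-55088243) stood at 265, 214, 243, 286 and 239 CPM in PBS and at 249, 256, 256, 315 and 278 CPM in Poly(A:U). Its lid Hspe1 (HSP10, chr1:55088132-55091307) stood at 53.8, 64.0, 57.7, 70.0 and 55.1 CPM in PBS and at 68.9, 74.0, 74.0, 76.9 and 54.9 CPM in Poly(A:U). Both were highest in Poly(A:U) 4, yet Poly(A:U) 5 was among the highest for Hspd1 and among the lowest for Hspe1. The changes were 0.09 ± 0.10 (adjusted p = 0.802, edgeR) and 0.19 ± 0.12 (unadjusted p = 0.131, adjusted p = 0.700). Per length these genes, which share the promoter region shown above, were near equal, with Hspd1 at 153 ± 21.5 TPM, Hspe1 at 145 ± 16.2 TPM (n = 10) and a ratio between 0.856 and 1.34. The mitochondrial HSP70 gene Hspa9 lay between 222 and 296 CPM.

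Of the heat shock factors, Hsf1, the main stress-activated one (chr15:76477422-76501913), stood at 46.7, 46.9, 41.1, 46.6 and 46.6 CPM in PBS and at 50.5, 51.3, 47.5, 46.9 and 39.4 CPM in Poly(A:U). PBS 3 and Poly(A:U) 5 were the low libraries (0.03 ± 0.10, adjusted p = 0.954, edgeR). Hsf2, which forms mixed trimers with HSF1 (chr10:57486385-57513135), stood at 8.26, 9.13, 8.32, 17.4 and 12.0 CPM in PBS and at 12.6, 11.3, 14.5, 14.2 and 12.9 CPM in Poly(A:U). PBS 1 to PBS 3 lay below the other 7 libraries and PBS 4 above them (0.21 ± 0.20, adjusted p = 0.782, edgeR).

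The larger contrasts in the set lay among the PBS libraries. In PBS 1 to PBS 3, 7 of 31 members (22.6%) were lower than in each of the other 7 libraries, against 945 of all genes (6.88%), and 0 members were higher than in each of the others, against 586 genes (4.27%). The 7 were Hspa1b, Hspa2, Hspa8, Dnaja2, Dnajb1, Tcp1 and Hsf2. When PBS 1 to PBS 3 were tested against PBS 4 and PBS 5 in edgeR, 77 genes passed an adjusted p of 0.05 (0.561%), 2 of them members (6.45%). This contrast came from the fit with the shared start of the names as a term, which was added after seeing the data. That fit also held the Poly(A:U) libraries, which add to its estimate of spread. Hspa2 averaged 5.84 CPM against 22.02 CPM (-1.93 ± 0.19, adjusted p = 0.0027), and Dnajb1 73.8 against 117 CPM (-0.68 ± 0.12, adjusted p = 0.0356). Hspa1b (-4.91 ± 0.96, adjusted p = 0.0568), Hsf2 (-0.80 ± 0.18, adjusted p = 0.0755) and Hspa8 (-0.64 ± 0.15, adjusted p = 0.0858) did not pass. For Hspa1b, PBS 4 stood at 25.5 CPM and PBS 5 at 2.11 CPM, so its estimate leans on PBS 4. The neutrophil, erythroid, Xist and Ddx3y values given above separate the same libraries, macrophage markers were higher in them than in all others but PBS 4, and their part in these differences was not tested. The 13 immediate-early genes, which respond with heat shock genes when cells are handled, had sums of 763 to 868 CPM in PBS 1 to PBS 3. Their sum was 829 CPM in PBS 4 and 911 to 1548 CPM in PBS 5 and the Poly(A:U) libraries. The part of these genes in the chaperone values was not tested.

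**Figure D4:**
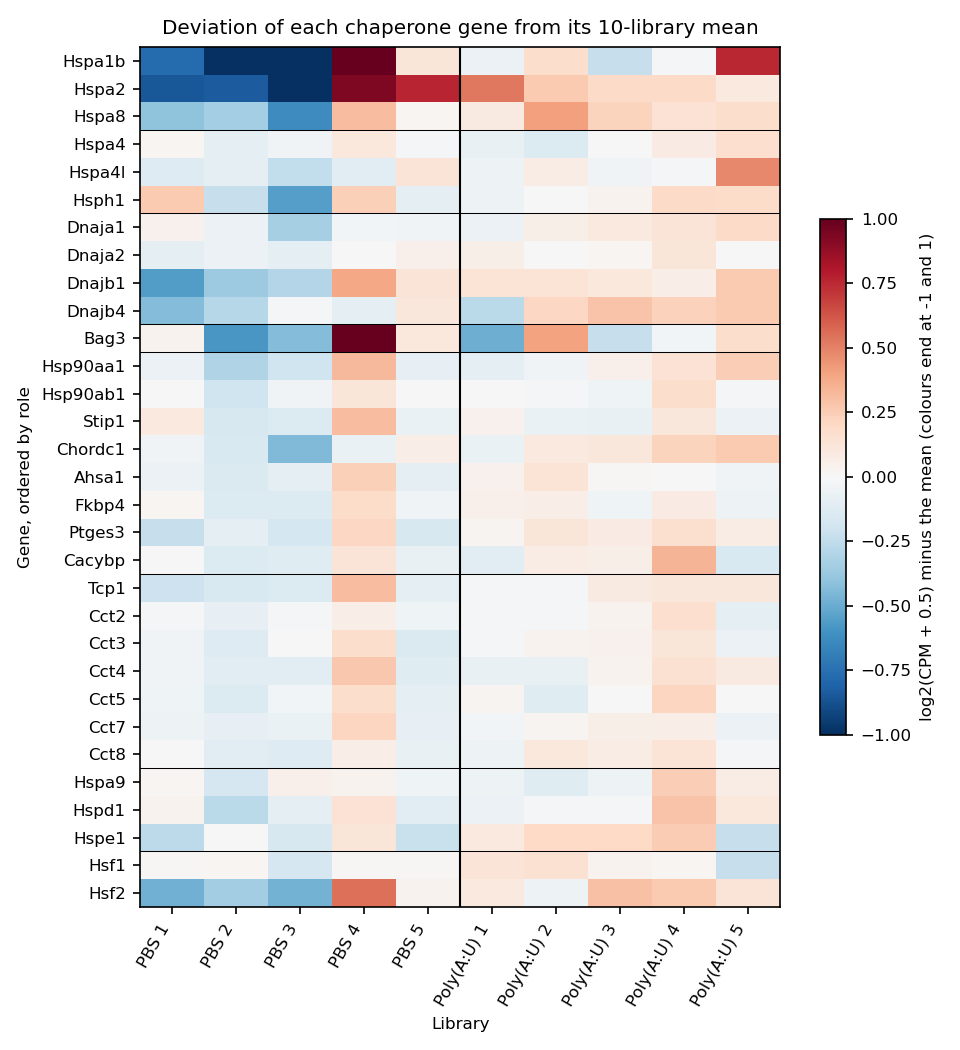
Deviation of the 31 tested members (rows, ordered by role) from their mean over the 10 libraries (columns), as log2(CPM + 0.5), with colours ending at -1 and 1 and a vertical line between PBS and Poly(A:U). PBS 1 to PBS 3 are mostly blue and PBS 4 mostly red across roles, while the Poly(A:U) libraries are paler, with Poly(A:U) 4 mostly red.

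To ask whether inducible members moved together, 9 pairs were correlated across the 10 libraries on log2(CPM + 0.5), with permutation p-values adjusted over the 9 pairs. Hspa1a did not pass the filter and had 0 to 23.8 reads per library, so counting error weighs on all its relations. For the pair with Hspa1b, the uncertain division of reads between these genes also bears on r. Hspa1a was correlated with Bag3 (r = 0.74, adjusted permutation p = 0.0451; rho = 0.64, adjusted p = 0.0987), Dnajb1 (r = 0.73, adjusted permutation p = 0.0451; rho = 0.82, adjusted p = 0.0493) and Hspa1b (r = 0.73, adjusted permutation p = 0.0451; rho = 0.65, adjusted p = 0.0987). Its r was 0.68 with Hsp90aa1 and 0.63 with Hspa8 (adjusted permutation p = 0.0523 and 0.0706). Hsph1 (r = 0.27), Hspd1 (r = 0.47) and Hspb1 (r = 0.18) showed no relation that passed. PBS 2 and PBS 4 were the libraries farthest from the median of Hspa1a. Without them r was 0.28 with Bag3, 0.53 with Dnajb1 and 0.27 with Hspa1b. Leaving out the extremes of Hspa1a narrows its range, which by itself tends to lower r. These values therefore cannot show that the relations rested on PBS 2 and PBS 4. Since PBS 1 to PBS 3 form a group of their own, r was also taken over the other 7 libraries, where it was 0.77, 0.78 and 0.76. These 7 libraries still hold PBS 4. With PBS 4 alone left out, r was 0.53 with Bag3, 0.64 with Dnajb1 and 0.49 with Hspa1b. Hsp90ab1 and Cct2 were related at r = 0.81 (adjusted permutation p = 0.0451) and rho = 0.56 (adjusted p = 0.145), with r = 0.55 without PBS 2 and Poly(A:U) 4 and 0.83 over the 7 libraries.

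The rest of the chaperone network was read from the same fit. Of 75 such genes outside the set, 66 were tested and 0 passed an adjusted p of 0.05 in either direction in edgeR, with 38 above 0 and 28 below and a median of 0.03. At an unadjusted p of 0.05 there were 5 of 66, a share near that of all genes (7.3%) and so no result about these genes. They are named here after their values were seen. They were the HSP90-linked cyclophilin Ppid (0.41 ± 0.11 SE, adjusted p = 0.677, from a PBS mean of 45.6 ± 7.15 CPM to a Poly(A:U) mean of 61.7 ± 6.86 CPM with n = 5 pups each), the BAG genes Bag5 (0.22 ± 0.08) and Bag2 (0.33 ± 0.13), the mitochondrial exchange factor Grpel2 (0.24 ± 0.09) and the J protein Dnajb12 (-0.15 ± 0.06). By subgroup, the median was 0.04 for 11 HSP70 relatives and exchange factors, -0.02 for 13 J proteins, 0.02 for 16 HSP90 co-chaperones, 0.05 for 9 CCT and prefoldin genes, -0.01 for 6 genes of HSF regulation or heat induction and 0.02 for 8 mitochondrial genes. Of 6 other small heat shock protein genes, 3 were tested, with a median of 0.07. The 12 chaperones of the endoplasmic reticulum, among them Hspa5 with a PBS mean of 590 ± 38.9 CPM and a Poly(A:U) mean of 632 ± 36.5 CPM, had a median of 0.02, with 0 of 12 passing.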

How the data were processed

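RNA was sequenced from LICs sorted from the spleen of 10 pups, 5 given PBS and 5 given Poly(A:U). The authors deposited, per the file headers, estimated counts of reads per transcript and the TPM of each transcript for each library. DRAGEN, edgeR 3.38.4 and mm10 are named in the submitters' processing notes. The annotation, the settings and the use of strand were not given in the sources used here. A table of normalized values, also deposited, was not used. Estimated counts were summed per gene with the GENCODE M21 annotation, which had no gene for 538 of 142333 transcripts (0.046% to 0.0695% of reads), and rounded to whole numbers for the tests. CPM are gene sums scaled to a common total of reads per library, and the TPM of a gene is the sum over its transcripts. Reads of near copies were divided by the authors' estimation.

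Groups were compared with edgeR 4.0.16 (R 4.3.3): filterByExpr with a minimum count of 10, TMM factors, a robust quasi-likelihood fit with treatment as its only term, and Benjamini-Hochberg adjustment over 13729 genes with a threshold of 0.05. The call of a gene is 2-sided, and errors after ± are SE for log2 fold changes and SD for levels. P-values measure the spread between pups, each library being a separate pup. Totals of 17859006 to 22587871 reads put 3 reads at 0.133 to 0.168 CPM. Alternatives were RLE factors, DESeq2 1.42.0, limma voom with quality weights (limma 3.58.1), a block for the replicate number, no filter, a stricter filter (10 CPM in at least 5 libraries), each library left out, PBS 1 to PBS 3 left out, and terms for what the library names share. A fit with only the shared start of the names of PBS 1 to PBS 3 as a term was added after seeing the data. The scripts were tested on simulated data.

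The 33 members, the lists and the tests were chosen with earlier results of these data known. Values in every library were given for 17 leading members and the 5 with the smallest unadjusted p, and other members by their range. Correlations used 100000 permutations (scipy 1.17.1).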

Additional observations from a re-analysis of the deposited data

Results flagged for a closer look

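Within each group of 5 pups, 12 of 65 sets of values had 1 library farther from the rest than Dixon's 95% limit of 0.71 for 5 values. For a single set, chance gives about 1 in 20. The sets come from the same libraries and are not independent, so their count cannot be weighed against that share. The 12 include Hspb1, which had reads in 1 library only. PBS 4 was the library in 6 of the 12. It stood at 25.5 CPM for Hspa1b, 164 CPM for Ahsa1, 172 CPM for Ptges3, 384 CPM for Tcp1, 286 CPM for Cct4 and 297 CPM for Cct7, each time the highest of the PBS libraries. PBS 3 was the lowest for Dnaja1, at 188 CPM, and for Hsf1, at 41.1 CPM. In the Poly(A:U) group, Poly(A:U) 5 was the highest for Hspa4l, at 21.0 CPM, and the one library with Hspb1 reads, at 0.0912 CPM. Poly(A:U) 1 was the lowest for Dnajb4, at 7.13 CPM, and Poly(A:U) 4 the highest for Hsp90ab1, at 1942 CPM.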

How the results depend on the processing

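No member passed an adjusted p of 0.05 under any setting except limma voom with quality weights, which called 3 members and 932 genes. DESeq2 called 13 genes, and leaving out 1 library gave 0 to 18 genes, the 18 without PBS 5. The median of the members was between 0.03 and 0.15 with 1 library left out, 0.15 with voom, 0.05 with RLE factors and with DESeq2, 0.07 with no filter, 0.06 with a filter of 10 CPM and 0.07 with the replicate block. It was -0.05 without PBS 1 to PBS 3, -0.10 with the shared name parts as terms and -0.05 with the shared name start as a term, an alternative added after seeing the data. Over 17 tested members named with full values, 113 of 150 log2 fold changes under other settings had the same direction and 34 were reversed, and 3 newly passed. With 1 library left out, 157 of 170 had the same direction and 13 were reversed. The cause of the reversals was not tested. With RLE factors Cct2 was -0.00063 and with DESeq2 -0.00073. With voom Hspa1b was 1.73, Bag3 0.19 and Stip1 0.03. Without PBS 1 to PBS 3, Hsph1 was -0.04, Dnajb1 -0.15, Hsp90aa1 -0.10, Hsp90ab1 -0.07, Tcp1 -0.10, Cct2 -0.02, Hsf1 -0.01 and Hsf2 -0.20. With the shared name parts as terms, Hspa8 was -0.09, Hsph1 -0.07, Dnajb1 -0.11, Dnajb4 -0.06, Hsp90aa1 -0.10, Hsp90ab1 -0.12, Tcp1 -0.12, Cct2 -0.12, Hspd1 -0.04, Hspe1 -0.07, Hsf1 -0.11 and Hsf2 -0.24. With the shared name start as a term, Hsph1 was -0.05, Dnajb1 -0.16, Hsp90aa1 -0.11, Hsp90ab1 -0.07, Tcp1 -0.10, Cct2 -0.03, Hsf1 -0.01 and Hsf2 -0.21. With 1 library left out, Hspa1b ran from -1.77 to 1.28, Hsph1 from -0.01 to 0.18, Bag3 from -0.52 to 0.31, Hsp90ab1 from -0.03 to 0.06, Stip1 from -0.09 to 0.04, Cct2 from -0.02 to 0.04 and Hsf1 from -0.03 to 0.09. Without the 2 farthest libraries, r of Hspa1a was -0.19 with Hsph1 and -0.13 with Hspd1. Same-numbered libraries, as deviations from their group means, correlated at 0.0206, 0.14, 0.136, -0.133 and -0.183. Only number 3 correlated best with its own. No pairing of pups by replicate number was seen, but the split of PBS 1 to PBS 3 from the other PBS libraries could mask one. With the replicate block, Hspa1b was 0.79 and the counts of calls stayed at 0. Depth limits Hspa1a, Hspa1b and Hspb1, which lay below 3 reads in some libraries, and Bag3, which had 6 reads in its lowest.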
